A study of Drosophila melanogaster with 12 samples.

Results

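The mutant Shu was set against the wild type CS over all 12 of the 12 arrays in the series, with the lithium dose held as a term, so that each probe set received 1 genotype difference averaged over both treatments. The arrays were chosen by their titles alone. Shu was represented by 6 arrays, 3 of untreated mutant heads (Shu_0) and 3 of mutant heads at a dose of 50 mM (Shu_50). CS was represented by 6 arrays, 3 of untreated wild-type heads (CS_0) and 3 of wild-type heads on 50 mM lithium (CS_50). All arrays held RNA of whole heads of Drosophila melanogaster. The label of Shu_50 states a dose but no drug, and lithium is named in the series title. Sex, age, length of treatment and the genetic background of either stock were not given, so the mutant allele and other differences between the stocks cannot be told apart. Whether the replicates were separate cultures is not stated, and p-values then measure only the spread between these samples, which may be technical.

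The gene annotation lists Shu and Shudderer as names of para (X:16455027-16533096, genome release 6), the gene of the voltage-gated sodium channel that carries the action potential in fly neurons. Shudderer is known as a gain-of-function allele of para whose carriers jerk and twitch, and these defects are known to be eased by feeding lithium. Sodium channels open on depolarization and start the spike, potassium channels end it, and the spike drives the release of transmitter at synapses. An allele that alters the channel protein need not alter its transcript, so the level of para checks nothing about the labels.

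Values are signals of the deposited arrays, which share a common scale. Differences are Shu minus CS in log2 after an offset of 6.16 was added to each signal, which understates the change of dim genes, and folds are on that scale. Calls were made where the adjusted p (Benjamini-Hochberg) of a linear model (limma) was under 0.05, across the 11261 probe sets bright enough to be tested, and "rose" and "fell" are kept for called ones. The value after ± is the standard error of the difference, with n = 6 arrays a genotype. Arrays of 1 group correlated at 0.985 to 0.989 and arrays of different groups at 0.977 to 0.987. The 2 arrays farthest from the rest were Shu_0 replicate 1 and CS_0 replicate 3, called far-out here, and counts are also given with both left out, a setting added after seeing the data where it concerns gene lists and the surroundings of para. Within its own group Shu_0 replicate 1 was not apart (0.9854 and 0.9856, against 0.9854 between the other 2). The far-out arrays were the least alike pair of all, at 0.9768, and 1 is Shu and 1 CS. Leaving both out therefore also removes genotype contrast and arrays, and does not mark either array as faulty. For the 18S control, a sign of RNA quality, the 3' signal over the 5' signal averaged 0.773 in Shu and 1.39 in CS (log2), and the arrays overlapped. The same ratio averaged 1.13 in Shu and 1.18 in CS for the actin control, and 2.53 and 2.62 for eIF-4a. For GAPDH it averaged 0.962 in Shu and 0.986 in CS. The part of RNA quality in the results was not tested.

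Shu and CS heads differed in 865 probe sets, 371 higher and 494 lower in Shu. The differences were mostly small: 765 of the 865 lay under 0.5 in log2, 350 lay under 0.25, and the median size was 0.278, or 1.21-fold. Differences of at least 1 in log2 numbered 16. The 865 were 7.68% of the probe sets tested (3.29% higher and 4.39% lower), and 748 of them name 1 gene, for 722 genes. An unadjusted p under 0.05 was reached by 2507.

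Averaging over the treatments brought in probe sets that neither comparison of 3 against 3 arrays called. Both comparisons were taken from a shared fit of all 4 groups, so their calls use the same estimate of spread. The untreated comparison (Shu_0 against CS_0) called 570 (5.06%), and the comparison on lithium (Shu_50 against CS_50) called 57 (0.506%). The untreated count was 129 without Shu_0 replicate 1, 154 without CS_0 replicate 3, 260 without Shu_0 replicate 3, 31 without both far-out arrays and 59 without the intensity trend. That on lithium was 30 without CS_50 replicate 3 or Shu_50 replicate 1. Of the 865, 431 were called in neither, 379 in the untreated comparison only, 16 on lithium only and 39 in both. Another 152 were called untreated and not in the average. The 431 had a median signal of 274.5, against 112.2 over all probe sets tested.

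The differences in the 2 comparisons of 3 against 3 share no array, so their signs and sizes can be read beside each other. The calls are not separate in this way, because they use the spread of the shared fit. Of the 570 called untreated, 521 (91.4%) had the same sign on lithium, with a median size of 0.173 there and 0.376 in their own comparison. Of the 57 called on lithium, 56 (98.2%) had the same sign untreated, at 0.419 against 0.495 in their own. Over all probe sets 62.8% had the same sign. The differences in the 2 treatments, taken across probe sets that are no independent replicates, correlated at 0.337, and at 0.248 without both far-out arrays. The test of whether the genotype difference itself changed with lithium called 1 probe set (0.00888%), which names no gene, against 758 at an unadjusted p under 0.05, and that count was 0 under several alternatives.

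**Figure D1:**
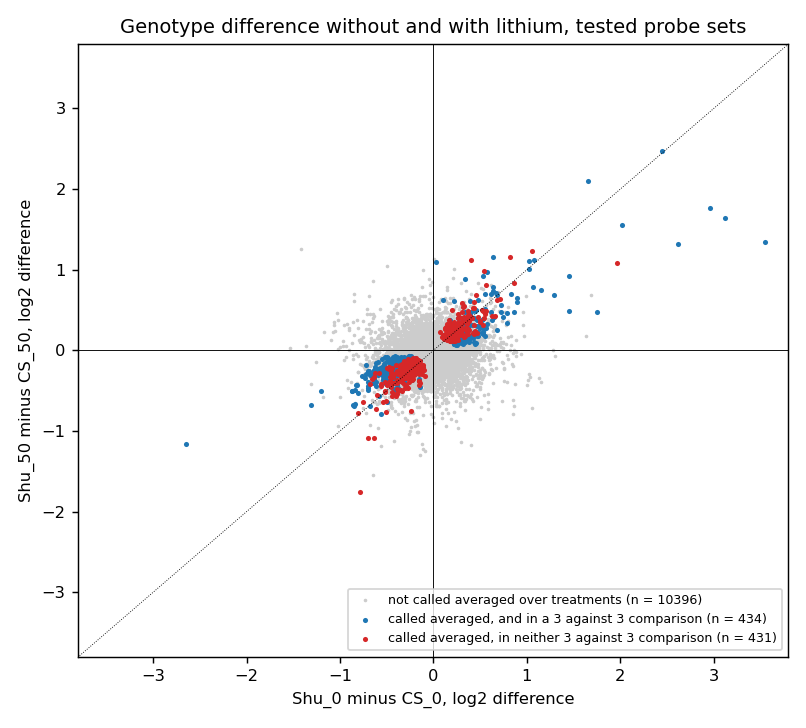
Shu minus CS in log2 for each probe set tested, untreated on the horizontal and on lithium on the vertical axis. The 431 probe sets called in the average and in neither comparison of 3 against 3 are in red, the other called ones in blue, and the dotted line marks equal differences. Of the 570 probe sets called untreated, 521 lay on the same side of 0 on lithium.

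Without both far-out arrays the average called 392 probe sets, 193 higher and 199 lower, and 383 of these were among the 865. All 865 kept their sign. Called with each array left out in turn and also without both were 358 probe sets, 178 higher and 180 lower, which is 3.18% of those tested.

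The small differences that only the average called are those under 0.5 in log2, with every Shu array on one side of every CS array, and called in neither comparison of 3 against 3. Such a separation of all 6 Shu arrays from all 6 CS arrays was found for 368 probe sets (3.27%), 319 of them called, and separation in both treatments with the same direction for 706 (6.27%), 527 of them called. The small differences numbered 108, 52 higher and 56 lower, or 0.959% of the probe sets tested, and 94 genes. Their sizes ran between 0.131 and 0.4998 with a median of 0.213, or 1.16-fold. Their median signal was 293.3 and their median standard error 0.0534, against 357.1 and 0.0629 over all 865 called and 112.2 and 0.0855 over all tested. Of the 108, 49 were called with each array left out in turn and 40 without both far-out arrays. Since the rule of choice used these same values, the separation of the arrays, the small standard errors and the signals that go with them are a description. The count of 108 also rests on calls from the shared fit, and was larger with each comparison fitted on its own arrays alone.

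The 10 small higher genes of lowest p are described singly. Vha13, a subunit of the vacuolar proton pump that acidifies organelles and synaptic vesicles, had a lowest, median and highest signal of 2993, 3145 and 3265 in Shu and 2589, 2691 and 2897 in CS. It was 1.16-fold higher (log2 0.21 ± 0.04, adjusted p = 0.00287), at 0.18 untreated and 0.23 on lithium. No Shu array overlapped with CS, and neither treatment alone was called. Men, the malic enzyme that makes NADPH, had 2288, 2717 and 2920 in Shu and 1863, 2119 and 2248 in CS. The lowest Shu array stood just above the highest CS array, and Men rose by 0.35 ± 0.06 (adjusted p = 0.00287).

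The cofilin tsr, which cuts actin filaments, rose by 0.19 ± 0.04 with Shu arrays at 2368 to 2726 and CS arrays at 2133 to 2303. The endocytic protein Past1 rose by 0.23, the photoreceptor protein rtp by 0.20 and the cuticle protein Cpr100A by 0.20. nonA, an RNA-binding protein known for its part in vision and courtship song, rose by 0.22 ± 0.04 (adjusted p = 0.00499), with 665.2 to 777.9 in Shu and 586.5 to 650.8 in CS, while its 2 other tested probe sets were not called (0.07 and -0.03). ArgRS, which loads arginine onto its tRNA, rose by 0.27 ± 0.06 (adjusted p = 0.00969). CG15080 (0.37) and CG6067 (0.24) complete the 10 of lowest p. All 10 were called with any 1 array left out and without both far-out arrays.

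The 10 small lower genes of lowest p included the following. Odc1, ornithine decarboxylase, the first enzyme of polyamine synthesis, had a lowest, median and highest signal of 387, 501.4 and 555.2 in Shu and 594, 627.4 and 668.4 in CS. It fell by 0.36 ± 0.07 (adjusted p = 0.00346), with -0.29 untreated and -0.42 on lithium. The highest Shu array lay below the lowest CS array. Tmlh, which starts the synthesis of carnitine, had 237.1, 275.6 and 297.3 in Shu and 313.7, 335.5 and 354.1 in CS, and fell by 0.30 ± 0.06 (adjusted p = 0.00494).

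The hydrolase t (tan), which frees dopamine and histamine from their beta-alanine conjugates, fell by 0.24 ± 0.05, with 1624 to 1936 in Shu and 2075 to 2473 in CS. The NMDA receptor subunit Nmdar1 had 117.1, 142.5 and 160.5 in Shu and 163.6, 171.7 and 200.4 in CS. It fell by 0.33 ± 0.07 (adjusted p = 0.0117), and it was not called without both far-out arrays (adjusted p = 0.0579). The secreted protease sona (-0.32), Sirup, an assembly factor of mitochondrial complex II (-0.23), vimar (-0.28), CG3984 (-0.42), CG15628 (-0.24) and CG32726 (-0.24) also fell. Of these 10 lower genes, 9 were called without both far-out arrays and Nmdar1 was not.

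**Figure D2:**
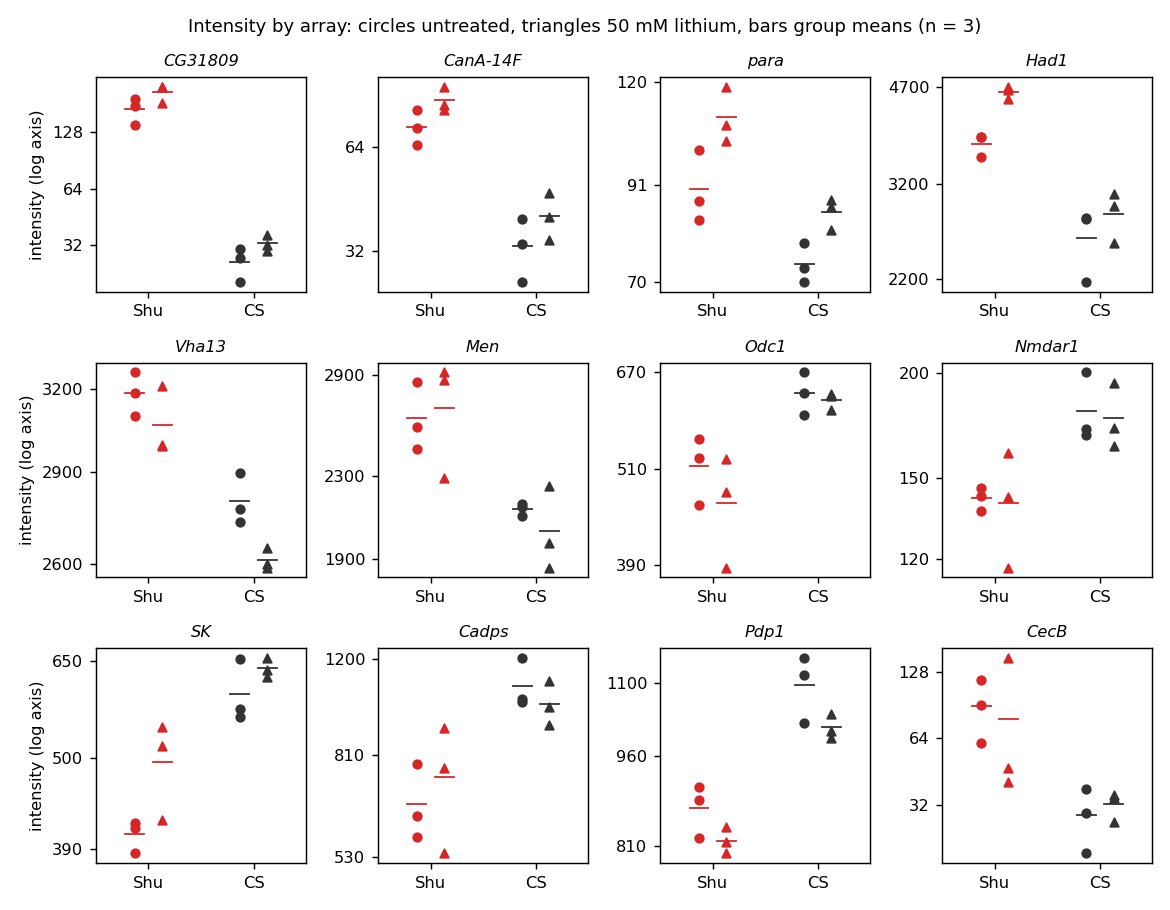
Signal of each array for 12 genes on log axes that differ between panels, Shu arrays in red left of CS arrays in black, with circles for untreated and triangles for lithium arrays and bars at the means of 3 arrays. For Vha13 the 6 Shu arrays lie between 2993 and 3265 and the 6 CS arrays between 2589 and 2897.

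**Figure D3:**
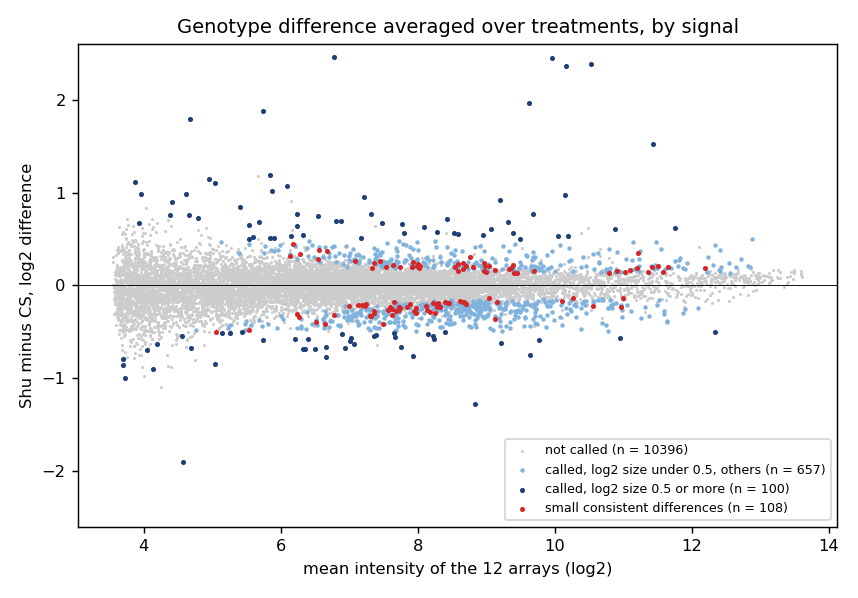
Shu minus CS in log2 for each probe set tested against its mean log2 signal, with the called and the small differences coloured. The 108 small differences have a median signal of 293.3 and all 865 called probe sets one of 357.1, and the rule of choice favours bright probe sets of small spread.

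Among genes whose genotypes did not overlap, the largest difference was that of CG31809 (2L:16853620-16858714), a predicted gene. Its signal was 140.7, 192.1 and 176.4 in Shu_0 and 223.9, 223.2 and 184.1 in Shu_50, against 30.81, 27.53 and 20.42 in CS_0 and 32.29, 29.87 and 36.17 in CS_50. The genotypes lay far apart in both treatments, and the highest CS array, at 36.17, stood well below the lowest Shu array. It was 5.49-fold higher (log2 2.46 ± 0.10, adjusted p = 7.39e-11). The overlapping DptB, described below, came close at 2.45, and with the offset doubled it was the larger of the pair (2.40 for DptB and 2.27 for CG31809). Its neighbour CG31810 (2L:16849018-16852368) was also higher, at 26.52 to 49.36 in Shu and 18 to 19.9 in CS (0.72 ± 0.14, adjusted p = 0.00494). Where neighbours resemble each other in sequence their probes can share signal, which was not tested here.

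Other large rises without overlap of the genotypes were those of single genes. Fbp2, a fat body protein, had 31.33, 42.17 and 76.47 as lowest, median and highest in Shu and 7.345, 20.63 and 26.49 in CS (1.10 ± 0.18, adjusted p = 0.00131). Cngl, a channel of the cyclic nucleotide-gated family, had 74.65 to 122.1 in Shu and 40.44 to 64.17 in CS (0.77 ± 0.13, adjusted p = 0.00151). This holds for 1 of its 3 tested probe sets, and the other 2 had the opposite sign and were not called (-0.26 and -0.18). lncRNA:CR32368 (1.07), CG4269 (0.89), Srg1 (0.77), CG17224 (0.75) and CG14630 (0.71) rose as well, and for each of them the genotypes did not overlap.

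Among the large falls without overlap of the genotypes was that of hgo, the homogentisate dioxygenase of the tyrosine breakdown pathway. hgo had 146.9, 178.6 and 213.7 in Shu and 251, 316.8 and 370.5 in CS. It fell by 0.76 ± 0.06 (adjusted p = 1.2e-06), and it was the 1 called gene of 6 tested in that pathway. CG7299 had 555 to 701.1 in Shu and 918.1 to 1056 in CS (-0.75 ± 0.06, adjusted p = 3.49e-07). CG17364 (-0.77), Dyro (-0.68), the Polycomb-group gene escl (-0.59) and wake, which links the clock to sleep (-0.58), also fell with no overlap of the arrays. Of the 2 other tested probe sets of CG17364, 1 was called lower with overlap (-0.51). The other had the opposite sign and was not called (0.12). CG7881 (-0.79, adjusted p = 0.0366) and a probe set of Pis, which makes phosphatidylinositol (-0.63, adjusted p = 0.0321), were dim and not called without some single arrays (adjusted p up to 0.0867 without CS_0 replicate 3 and up to 0.0771 without CS_50 replicate 1). The other 2 tested probe sets of Pis were far brighter and not called (0.15 with 1251 in Shu and 1129 in CS, and 0.01 with 2927 in Shu and 2915 in CS), so no fall is given for the gene. Larger falls were called where the genotypes overlapped. Ugt37A3, the 1 called of 20 UDP-glycosyltransferase genes, fell by 1.27 ± 0.32 (49.04 to 666.9 in Shu and 79.07 to 2302 in CS, adjusted p = 0.0204). The dim wcy, near para and named after its values were seen, fell by 0.90 ± 0.24 (adjusted p = 0.0294). Neither was called without both far-out arrays (adjusted p = 0.0520 and 0.0944).

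The transcript of para was higher in Shu heads. Its 1 tested probe set gave 87.07, 99.88 and 82.78 in Shu_0 and 118.5, 102.4 and 106.8 in Shu_50, against 72.65, 77.87 and 70.05 in CS_0 and 80.65, 87.36 and 85.77 in CS_50. Within each treatment every Shu array was above every CS array, and across treatments the groups overlapped. The difference was 0.31 ± 0.07 (adjusted p = 0.0156), called with any array left out and without both far-out arrays (adjusted p = 0.0467). Neither treatment alone was called (adjusted p = 0.156 and 0.181). The glutathione transferase GstS1, whose loss is known from fly genetics to ease Shudderer, had 1042 to 1274 in Shu and 1011 to 1210 in CS (0.02 ± 0.06, adjusted p = 0.894).

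Called genes were more frequent beside para than elsewhere. Within 1 Mb of para 29 of 186 probe sets were called (15.6%), 13 higher and 16 lower, against 101 of 1401 on the rest of X (7.21%) and 617 of 7982 on the autosomes (7.73%). Shares by distance were 15.3% within 0.5 Mb, 15.9% between 0.5 and 1 Mb, 8.45% between 1 and 2 Mb, 7.12% between 2 and 4 Mb and 7.05% farther away. Without both far-out arrays the shares were 8.6% within 1 Mb, 3.78% on the rest of X and 3.42% on the autosomes. Neighbouring genes are not independent, and no test of these shares was made. By chromosome the share called was 8.19% on X, 7.46% on 2L, 7.98% on 2R, 8.03% on 3L, 7.36% on 3R and 11.4% on chromosome 4, where 79 probe sets were tested.

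The genes beside para moved in both directions. CanA-14F (X:16560684-16587172), a catalytic subunit of the calcium-activated phosphatase calcineurin and the nearest called gene, had 65, 81.99 and 95.68 as lowest, median and highest in Shu and 26.05, 37.06 and 47.01 in CS. It was 2.02-fold higher by this probe set (log2 1.02 ± 0.11, adjusted p = 2.11e-05), whereas its second tested probe set fell by 0.34 ± 0.06 (212.2 in Shu and 271 in CS, adjusted p = 0.00202). The gene therefore has no single direction on these arrays. Probe sets of opposite calls were also found for Fis1, Gpdh1, ps and sty, and of 145 called genes with several probe sets, 54 had differences of both signs.

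Had1 (X:16306912-16308667) had 3566, 4167 and 4706 in Shu and 2171, 2794 and 3075 in CS, and rose by 0.62 ± 0.06 (adjusted p = 2.11e-05). CG5172 (X:17221442-17222651) had 934.9 to 1222 in Shu and 540.6 to 660.6 in CS (0.76 ± 0.06, adjusted p = 3.82e-07), and ENGase, which trims sugars from glycoproteins, rose by 0.64 ± 0.09. Lower were RSG7, a regulator of G protein signalling (57.13 to 74.87 in Shu and 84.7 to 148.8 in CS, -0.69 ± 0.10), and the transcription factor disco (91.99 to 112.5 in Shu and 136.4 to 199.1 in CS, -0.60 ± 0.09). Of the small differences 5 lay in this stretch, those of nonA, ArgRS, one probe set of shi (-0.19), Rrp47 (-0.18) and Cyp1 (0.14), the last 3 named after their values were seen. Rrp47 and Cyp1 were not called without both far-out arrays (adjusted p = 0.0747 and 0.121).

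**Figure D4:**
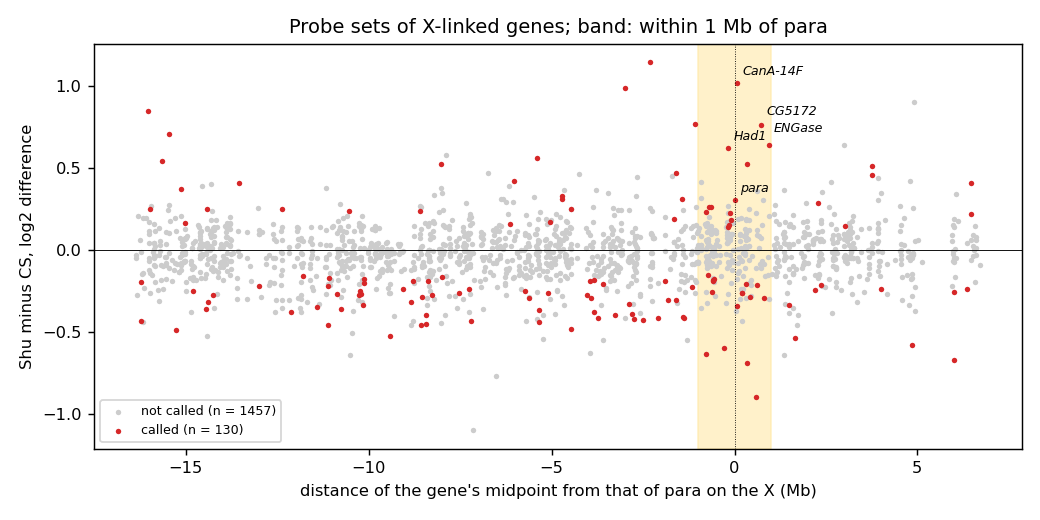
Shu minus CS in log2 for probe sets on X against the distance of their gene from para in Mb, with called probe sets coloured. Within 1 Mb of para 15.6% were called, against 7.21% on the rest of X.

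Gene lists were read as counts of called genes and the median difference of each list, beside all 8611 genes, of which 8.38% were called (3.66% higher and 4.78% lower) at a median of 0.00773. Only genes bright enough to be tested are counted. A gene counts as called by any of its probe sets: of 23 called probe sets named by the rule whose genes have others tested, 5 had another called in the same direction, 2 had one called in the opposite direction and 16 had no other called. In whole heads, fewer cells of a type and less RNA per cell cannot be told apart.

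Single genes among the channels that shape the spike were lower, but the array means of the sodium and the potassium channel lists overlapped between genotypes. Among 11 tested sodium channel genes and regulators para rose, and tipE, an auxiliary subunit that raises sodium current, fell by 0.42 ± 0.09 (131 to 182.5 in Shu and 176.7 to 245.6 in CS, adjusted p = 0.00819). The translational repressor pum, which binds para mRNA, fell by 0.20 ± 0.05 (adjusted p = 0.0182), and it was not called without both far-out arrays (adjusted p = 0.0746).

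Of 19 potassium channel genes 3 fell and none rose, and 2 fell without both far-out arrays. By their brightest probe set 9 of the 19 had a positive difference, at a median of -0.0327. At an unadjusted p under 0.05, 1 was higher and 7 were lower. SK, the calcium-activated potassium channel, had 385.2, 419.9 and 543.7 as lowest, median and highest in Shu and 559, 628.5 and 656 in CS. It fell by 0.46 ± 0.06 (adjusted p = 0.000318) with no overlap, and 1 of its 2 other tested probe sets was called as well. Sh (Shaker), the fast inactivating channel, had 314.7, 351.1 and 373.8 in Shu and 403.6, 424.3 and 525.7 in CS (-0.33 ± 0.06, adjusted p = 0.00474), and none of its 6 other probe sets was called, 3 of them with the opposite sign. Shaw (-0.21, adjusted p = 0.0403) was called in 2 of the 12 fits with an array left out (adjusted p up to 0.0939 without Shu_0 replicate 1). None of 12 calcium and chloride channel genes was called by limma, with 1 higher and 2 lower at an unadjusted p under 0.05.

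Synaptic genes were lower as a list. Of 24 tested, 7 fell and none rose, 17 were lower and 1 higher at an unadjusted p under 0.05, and the median was -0.137. Without both far-out arrays 6 fell, at a median of -0.0838. The mean over the list lay between -0.133 and -0.0277 in the Shu arrays and between 0.0245 and 0.195 in the CS arrays, so the genotypes did not overlap. Cadps, which primes dense-core vesicles for release, had 539.3, 697.9 and 904.7 in Shu and 916.9, 1012 and 1207 in CS (-0.58 ± 0.10, adjusted p = 0.00287). Its other tested probe set was not called (372.3 in Shu and 386.7 in CS, -0.05). Fife, a scaffold of the active zone, had 318 to 394 in Shu and 417.8 to 577.6 in CS (-0.38 ± 0.07, adjusted p = 0.00287). None of the 4 other tested probe sets of Fife, all dimmer, was called (-0.28 to -0.01).

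VAChT, which loads acetylcholine into vesicles, had 601.1 to 702.3 in Shu and 755.2 to 867.2 in CS (-0.26 ± 0.05, adjusted p = 0.00304). Markers of neurons in general, a list that shares VAChT with the synaptic one, had 1 called member of 11, VAChT itself. Of those 11 markers 10 lay lower, the median was -0.118, and the array means of Shu all lay below those of CS. Of 17 glial markers 1 fell, nrv2, a beta subunit of the sodium pump (-0.34 ± 0.08), and the array means overlapped. The part of neuron content in the synaptic result was not tested.

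Transmitter receptors and peptides went both ways with more falls than rises. Of 33 receptor genes 1 rose and 5 fell, against 0 and 1 without both far-out arrays. The one that stayed called was DopEcR, a receptor for dopamine and ecdysone (-0.25 ± 0.06, adjusted p = 0.0178), and Nmdar1 is described above. nAChRbeta1 (-0.21, adjusted p = 0.0245) missed the threshold when Shu_0 replicate 1 was left out (adjusted p = 0.0691). Of 14 genes of biogenic amines 2 fell, t and ple, the tyrosine hydroxylase that starts dopamine synthesis (-0.43 ± 0.10, adjusted p = 0.0169), and of these t was called without both far-out arrays. The list had also held Rph, or rabphilin, a protein of synaptic vesicles that is no amine gene and is left out of this count, though not of the plotted list of 15 (-0.25 ± 0.06, adjusted p = 0.0140, and 0.0517 without both far-out arrays).

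Of 25 neuropeptide genes CCHa2, a peptide of gut and fat body that acts on insulin release, rose by 0.41 ± 0.07 (adjusted p = 0.00228). sNPF had 427.2 to 510.2 in Shu and 514.6 to 651.2 in CS (-0.30 ± 0.06, adjusted p = 0.00666). Ilp5, an insulin-like peptide, fell by 0.18 ± 0.04 (adjusted p = 0.0176). In all 1 rose and 3 fell, against 1 and 1 without both far-out arrays. AstC, the fourth called member, was chosen after its values were seen (-0.19, adjusted p = 0.0477) and missed the threshold when Shu_0 replicate 1 was left out (adjusted p = 0.112).

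Activity-regulated and clock genes included transcription factors that were lower. Of 14 activity-regulated genes Arc1, whose protein forms capsids that carry its own RNA, rose by 0.61 ± 0.11 (adjusted p = 0.00261). The genotypes overlapped (974.4 to 3705 in Shu and 775.9 to 2444 in CS). The difference was 0.34 untreated, where it was not called (adjusted p = 0.129), and 0.88 on lithium, where it was (adjusted p = 0.00163). A second called probe set of Arc1 gave 0.03 untreated and 1.09 on lithium. kay, the fly Fos, had 343.7 to 441.5 in Shu and 435.9 to 673.2 in CS and fell by 0.45 ± 0.08 (adjusted p = 0.0039). sr, CG8910 and Hr38 also fell (-0.42, -0.28 and -0.37), and each lost the call without some single array (adjusted p up to 0.0790 without Shu_0 replicate 3, 0.0983 without CS_0 replicate 3 and 0.116 without Shu_0 replicate 1).

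Of 11 clock genes 3 fell and none rose, also without both far-out arrays. By their brightest probe set 5 of the 11 had a positive difference, at a median of -0.0629. At an unadjusted p under 0.05, 3 were higher and 4 lower. Pdp1, an activator of Clock, had 799.3, 830.5 and 904.3 in Shu and 992.2, 1029 and 1153 in CS (-0.32 ± 0.04, adjusted p = 0.000193). cwo, a repressor of the loop, fell by 0.33 ± 0.06 (389.6 to 517.9 in Shu and 541 to 604.7 in CS), and vri, a repressor of Clock, by 0.23 ± 0.05. The hour of collection was not given.

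Antimicrobial peptides and amidases of the IMD branch, the arm of fly immunity that answers mainly Gram-negative bacteria, were higher with a wide spread. Of 21 listed 10 were matched on the array and 9 of these were bright enough to be tested. Of the 9, 5 rose and none fell, at a median of 0.971, which was 1.45 untreated and 0.48 on lithium. The array means of the list overlapped. Without both far-out arrays 1 rose, at a median of 0.719. CecB, a cecropin, had 40.29, 75.8 and 147.7 in Shu and 19.26, 31.81 and 37.44 in CS (1.19 ± 0.25, adjusted p = 0.00705), and this was the call that held. DptB, a diptericin, had 305, 1298 and 4668 in Shu and 65.34, 169.4 and 667 in CS, which overlapped (2.45 ± 0.55, adjusted p = 0.0115). The difference was 3.54 untreated and 1.35 on lithium, and replicate 1 was the highest array of each group (4668 in Shu_0, 667 in CS_0, 1137 in Shu_50 and 563.1 in CS_50), the reason for which was not tested.

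PGRP-SB1 (0.97), AttD (1.11) and Mtk (1.53) were called in the average but depended on single arrays, the last 2 being chosen after their values were seen. The highest adjusted p was 0.0569 for PGRP-SB1 without CS_0 replicate 3, and 0.0706 for AttD and 0.107 for Mtk without Shu_0 replicate 1. Of 11 Toll effectors Drsl4 rose (0.22) and BomS4 fell (-0.35), neither called without both far-out arrays. Of 22 genes of IMD and Toll signalling Myd88 alone was called (0.27), and not without Shu_0 replicate 3 (adjusted p = 0.0975).

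Fat body markers were mostly higher. Of 19 fat body markers 7 rose and 2 fell, against 5 and 0 without both far-out arrays, and the array means of Shu (0.0790 to 0.168) all lay above those of CS (-0.211 to 0.00213). The median was 0.0867, and 0.0424 after quantile normalization. Had1, 1 of the 7, lies within 1 Mb of para. Beside Had1 and Fbp2, the larval serum protein Lsp2, a store of amino acids, had 5657, 5922 and 6247 in Shu and 3633, 4331 and 5597 in CS (0.44 ± 0.07, adjusted p = 0.00209). The female-enriched fit rose by 0.38 ± 0.08 (4597 to 7494 in Shu and 3879 to 5011 in CS). Fat body also makes the antimicrobial peptides described above, and the part of its markers in that result was not tested. The yolk proteins Yp1 (0.15), Yp2 (0.07) and Yp3 (0.09), made by female fat body, were not called.

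Of 22 genes of lipid metabolism 6 rose and 5 fell, against 4 and 2 without both far-out arrays. SCOT, which lets cells burn ketone bodies, had 299.7, 472.7 and 620 in Shu and 223.2, 309.1 and 380.7 in CS (0.55 ± 0.06, adjusted p = 3.61e-05). The range overlapped across treatments. Lsd-2, the perilipin that coats lipid droplets, had 641.1 to 802.5 in Shu and 827.5 to 1075 in CS and fell by 0.41 ± 0.07 (adjusted p = 0.00131). Acbp2, which binds acyl-CoA, rose by 0.26 ± 0.05 (adjusted p = 0.00399).

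**Figure D5:**
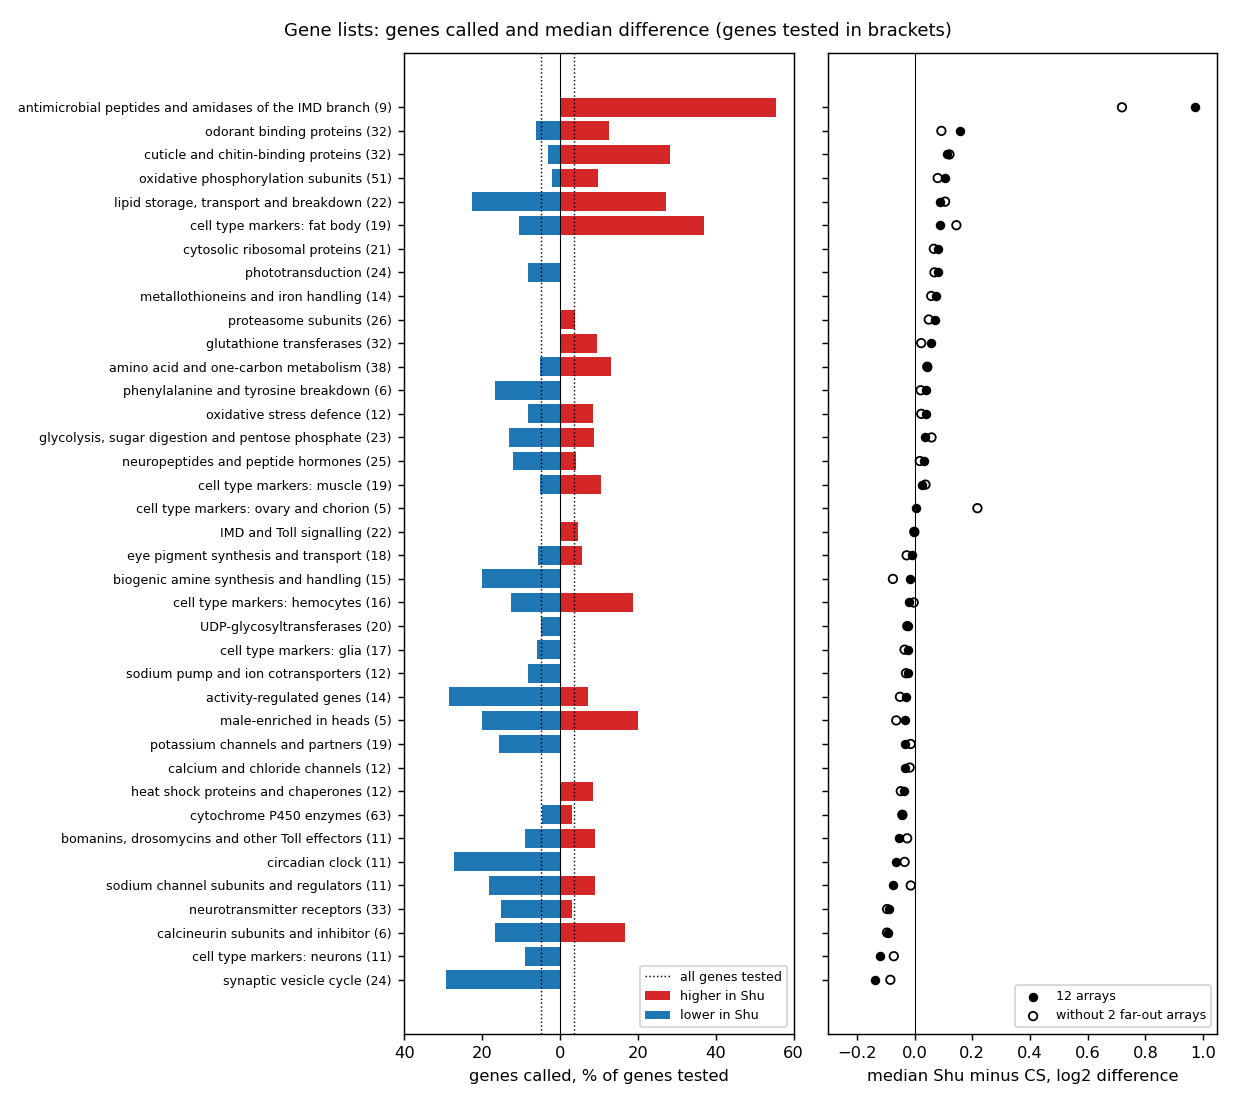
Share of each list's tested genes called higher (red) or lower (blue) in Shu, with dotted lines at the shares over all genes, and beside it the list's median Shu minus CS in log2 with and without the far-out arrays. The synaptic list has a median of -0.137 with 7 of 24 genes lower, and the cuticle list a median of 0.111 with 9 of 32 higher.

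Cuticle genes were called higher more often than lower. Of 32 tested, 9 rose and 1 fell at a median of 0.111, and without both far-out arrays 8 rose and 1 fell. A positive difference was found for 21 of the 32, and the array means of the list overlapped. Cpr62Bc, a chitin-binding protein, had 1114, 1200 and 1426 in Shu and 883.7, 914.1 and 929.8 in CS (0.44 ± 0.05, adjusted p = 0.000135). All 6 Shu arrays lay above the CS arrays. Acp65Aa, an adult cuticle protein, rose by 0.67 ± 0.09 (adjusted p = 0.000204), and Cpr76Bd by 0.48 ± 0.09 (adjusted p = 0.00289).

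Odorant-binding proteins, which carry odorants to the receptors, were called in both directions. Of 32, 4 rose and 2 fell, against 2 and 2 without both far-out arrays. In this list 22 had a positive difference, at a median of 0.158, and the array means overlapped. Obp99a had 1270, 1603 and 1865 in Shu and 2011, 2242 and 2787 in CS (-0.57 ± 0.06, adjusted p = 2.11e-05). Obp99b rose by 0.57 ± 0.11 (203.1 to 423.4 in Shu and 134.3 to 212.6 in CS), and Obp56e fell by 0.25 ± 0.04. Of 24 photoreceptor genes 2 fell and none rose (8.33%, against 8.38% over all genes), and 1 fell without both far-out arrays. The 2 were the phosphatase rdgC (-0.25 ± 0.06, adjusted p = 0.0125) and the diacylglycerol kinase rdgA (-0.26, adjusted p = 0.0409). The call of rdgA was lost without CS_0 replicate 3 (adjusted p = 0.0975).

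Of 51 genes of oxidative phosphorylation 5 rose and 1 fell, or 11.8% called against 8.38% over all genes. At an unadjusted p under 0.05, 27 were higher and 2 lower. By their brightest probe set 50 had a positive difference, at a median of 0.106. The means over the list overlapped, at -0.0544 to 0.131 in the Shu arrays and -0.0995 to 0.00952 in the CS arrays. The median was 0.0584 after quantile normalization, and 1 rose and none fell without both far-out arrays. That gene was ND-B18, a subunit of complex I, at 1467, 1496 and 1549 in Shu and 1142, 1210 and 1311 in CS (0.31 ± 0.04, adjusted p = 0.000153). COX4, a subunit of complex IV, had 6548 to 7047 in Shu and 5476 to 6276 in CS (0.20 ± 0.04, adjusted p = 0.00969). Ribosomal protein genes had a positive difference in 21 of 21, at a median of 0.0815 that was 0.00403 after quantile normalization. None was called by limma, with 3 higher and 1 lower at an unadjusted p under 0.05 over all their probe sets.

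Genes of amino acid and sugar metabolism were called in both directions. Of 38 genes of amino acid metabolism 5 rose and 2 fell (3 and 1 without both far-out arrays), among them Nmdmc, a mitochondrial folate enzyme (0.68 ± 0.12), Oat, the ornithine aminotransferase (0.25 ± 0.05), and Odc1. Of 23 genes of carbohydrate metabolism 2 rose and 3 fell, against 0 and 1 without both far-out arrays, with Gpdh1 counted on both sides. Gpdh1 had probe sets called in both directions, so no direction is given. Pepck1, of gluconeogenesis, fell by 0.38 (adjusted p = 0.0245), and lost its call when Shu_0 replicate 1 was left out (adjusted p = 0.0639). The aldolase Ald1 fell by 0.19 ± 0.05 (adjusted p = 0.0174), and it was not called without both far-out arrays.

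Of 63 cytochrome P450 genes 2 rose and 3 fell (7.94%, against 8.38% over all genes). Without both far-out arrays 3 fell. Cyp6a2, known for metabolizing insecticides, had 118 to 221.6 in Shu and 234.5 to 289.3 in CS (-0.66 ± 0.11, adjusted p = 0.00131), Cyp6a9 fell by 0.45 and Cyp18a1, which inactivates ecdysone, by 0.24. Of 32 glutathione transferase genes 3 rose (9.38%), which were GstE9 (0.24 ± 0.05), GstE14 (0.23) and GstD9 (0.25). Of these GstE9 was called without both far-out arrays. GstD9 lost its call when Shu_0 replicate 3 was left out (adjusted p = 0.0827). Among the eye pigment genes g fell (-0.42 ± 0.07, 218.5 to 259.1 in Shu and 288.5 to 383.6 in CS) and pr rose (0.28 ± 0.06), of 18 tested.

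Markers of other tissues showed no common shift. Of 16 hemocyte markers 3 rose and 2 fell (3 and 0 without both far-out arrays). Higher were the collagen IV genes vkg (0.27 ± 0.05) and Col4a1 (0.15) and the hemocyte protein Hml (0.25). Col4a1 was not called without both far-out arrays (adjusted p = 0.0660), so the 3 called higher in that setting are not the same 3 genes. Of 19 muscle markers 2 rose and 1 fell (0 and 1 without both far-out arrays), at a median of 0.0272 that was -0.0313 after quantile normalization. Ovary markers were near the lower end of the arrays, at a median signal of 16.1, and none of 5 tested was called.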

How the data were processed

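RNA of whole heads was hybridized to 12 Affymetrix arrays. The deposited values were read as linear intensity, and the authors' columns shared a mean of 150.005 after trimming 2% at each end. The software that summarized the probes and the genome build it used are not given in the sources used here. Of 18952 probe sets 183 were controls, and 11261 at or above the 40th percentile of mean log2 value were tested. Genes were named from the platform annotation and matched to RefSeq genes of release 6 (9612 probe sets name 1 gene).

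The model held genotype and lithium as terms (9 residual degrees of freedom) in limma 3.58.1 under R 4.3.3, with an intensity trend and two-sided tests. The comparisons within a treatment and the interaction came from a fit of 4 group means (8 residual degrees of freedom). The procedure was tested on simulated data. Figures were drawn with matplotlib 3.10.9. Replicate numbers are those of the titles, although the description of CS_50 replicate 2 reads sample 1.

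The groups, gene lists and naming rule were chosen with earlier results of these data known. The rule named para and GstS1, the 12 largest rises and 12 largest falls without overlap of the genotypes, the 10 higher and 10 lower small differences of lowest p, up to 3 called members of each list and up to 4 called genes within 1 Mb of para. Genes named beyond it, to complete a count or a stretch, were chosen after their values were seen. Same-numbered replicates correlated at -0.0649 to 0.0915 in their deviations from group means, none above 0.1, so the numbers were not taken as pairs. Alternatives were quantile normalization, other offsets, other filters, no intensity trend, no dose term, array weights, a replicate term, only the 6 arrays of a comparison, and each array left out.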

Additional observations from a re-analysis of the deposited data

Results flagged for a closer look

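Among 228 sets of 6 arrays, 1 for each named probe set and genotype after removal of the lithium difference, 8 held an array far from the other 5, and chance gives about 1 in 20 sets. In 5 of the 8 the array was CS_0 replicate 3. It had the highest signal of its genotype for SK (655.1), Sh (525.7), nAChRbeta1 (2514), CG15080 (105.3) and Oat (495.9). In the others, CS_50 replicate 2 was highest for CG17224 (92.79), Shu_50 replicate 3 was highest for CG17364 (77.41), and Shu_0 replicate 2 was lowest for Cyp18a1 (327.1). Highest and lowest refer to values after removal of the lithium difference, while the signals given are as deposited.

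The genotype difference changed with lithium in 1 probe set, which names no gene. Its signal was 11.25, 6.767 and 8.23 in Shu_0 against 44.96, 18.3 and 42.99 in CS_0, and 27.52, 33.73 and 25.11 in Shu_50 against 9.097, 8.39 and 7.776 in CS_50. The log2 difference on lithium minus that untreated was 2.67 ± 0.39 (limma, adjusted p = 0.0415). No interaction was called under quantile normalization, no offset, no filter, the stricter filter or no intensity trend, or with any 1 of 8 of the 12 arrays left out (all Shu arrays, CS_0 replicate 1 and CS_50 replicate 2). In this dim probe set every Shu array lay below every CS array untreated and above every CS array on lithium.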

How the results depend on the processing

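The averaged comparison called 391 probe sets (186 higher, 205 lower) without the intensity trend, 392 (193 higher, 199 lower) without CS_0 replicate 3 and Shu_0 replicate 1 together, and 571 (235 higher) without the dose term. Without the trend the untreated comparison called 59, that on lithium 25 and the interaction 0. Without both far-out arrays the untreated count was 31. Array weights gave 132 on lithium and 2 interactions. The numbers were not taken as pairs, although 7 of 12 arrays correlated best with an array of their own number. With the replicate number as a block, the averaged comparison called 835, the untreated one 548, that on lithium 100 and the interaction 2. The 6 arrays of a comparison alone gave 324 untreated and 170 small differences. The interaction was 0 under quantile normalization, no offset, no filter and a filter at the 60th percentile. Within 1 Mb of para the count was 19 without the trend, 16 without both far-out arrays and 19 without the dose term. The cause of these changes was not tested.

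With 1 array left out in turn, the averaged count ran from 522 to 929 (247 to 391 higher, 275 to 538 lower), the untreated one from 129 to 691, that on lithium from 30 to 68, the interaction from 0 to 1 and the small differences from 77 to 158. Single arrays moved a count by over 1.5 times. Without Shu_0 replicate 1 the average called 522 and the untreated comparison 129. Without CS_0 replicate 3 these were 579 and 154, with 309 lower in the average, and without Shu_0 replicate 3 the untreated count was 260. Without CS_50 replicate 3 or Shu_50 replicate 1, 30 were called on lithium. The uncalled difference of GstS1 ran from -0.0163 to 0.0488, and was negative without CS_0 replicate 2 (-0.0163), Shu_0 replicate 2 (-0.002102) or Shu_50 replicate 3 (-0.0153).

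Of the 114 named probe sets 113 were called, 97 of them with every array left out and 66 under all alternatives. Over 2614 settings of single probe sets 2401 kept direction and side of the threshold and 210 lost the call. The number of arrays limits the precision, and no array gives a depth.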
